A study of Homo sapiens with 4 samples.

Results

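The differential ac4C peaks that the authors' annotation placed in coding sequence (CDS) comprised 544 of the 2807 peaks in the deposited table of differences between control and NAT10-depleted FaDu cells. They were chosen by that region class, and every peak of the table had itself been selected on measured values, the significance of its difference between the conditions. The listing of a member in one condition or the other and its fold enrichments therefore come from the contrast that chose it, and they are described here without a test. FaDu is a cell line of a human hypopharyngeal squamous cell carcinoma. One group carried a control shRNA (shNC) and the other an shRNA against NAT10 (shNAT10), the shRNAs being delivered by lentivirus with puromycin selection. In acRIP-seq, an antibody against ac4C enriches RNA fragments (IP), and the starting RNA is sequenced beside them (input). There was a single IP and a single input library for shNC and likewise for shNAT10, so no value has a replicate, and an effect of the shRNA cannot be told apart from a difference between 2 preparations.

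N4-acetylcytidine (ac4C) is a cytidine with an acetyl group on the amino nitrogen of its base. NAT10 is the acetyltransferase that writes it on ribosomal RNA, on tRNA with a partner protein, and by several reports on mRNA, where it has been tied to RNA stability and, within coding sequence, to decoding by the ribosome. The authors searched the differential peaks for CXXCXXCXXCXX, a motif of 4 cytidines, each followed by 2 bases of any kind (X). A repeat at this spacing keeps step with codons, so in coding sequence all 4 cytidines fall on the same codon position.

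Sequences were at hand where a reference window happened to cover a member, which was so for a few members only. The following were printed to show what a listed site looks like in members of the CDS class and what a stretch without one looks like. The runs can also hold bases outside coding sequence. Capitals mark listed CXXCXXCXXCXX sites, and all runs are 5′ to 3′ on the strand of the gene in GRCh38.p14, from RefSeq. RPL27A (a protein of the large ribosomal subunit, chr11:8683182-8683400, plus strand) and ERP29 (an endoplasmic reticulum chaperone, chr12:112022164-112022344, plus strand) carry sites. BST2 (tetherin, an antiviral membrane protein, chr19:17405442-17405575, minus strand) and PPIA (cyclophilin A, a prolyl isomerase, chr7:44796725-44796780, plus strand) are shown from the first ATG of the covered stretch. A further listed site of PPIA lies before that ATG and is not printed. DNAAF3 (a dynein assembly factor, chr19:55159196-55159358, minus strand) had no listed site, and the covered stretch of CHPF2 (a chondroitin synthesis enzyme, chr7:151238421-151238538, plus strand), which is also the hairpin of MIR671, held none of the 3 sites of its peak.
RPL27A: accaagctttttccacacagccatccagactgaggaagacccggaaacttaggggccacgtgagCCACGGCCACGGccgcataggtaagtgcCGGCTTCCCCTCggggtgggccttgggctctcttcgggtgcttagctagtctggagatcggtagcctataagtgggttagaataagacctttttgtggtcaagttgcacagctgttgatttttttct
ERP29: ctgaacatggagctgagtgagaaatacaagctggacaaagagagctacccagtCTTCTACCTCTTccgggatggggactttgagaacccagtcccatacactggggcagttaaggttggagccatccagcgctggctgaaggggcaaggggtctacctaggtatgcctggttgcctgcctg
BST2: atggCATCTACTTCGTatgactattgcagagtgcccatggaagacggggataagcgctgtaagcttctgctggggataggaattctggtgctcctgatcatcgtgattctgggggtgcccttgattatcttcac
PPIA: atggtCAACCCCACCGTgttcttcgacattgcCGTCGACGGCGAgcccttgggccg
DNAAF3: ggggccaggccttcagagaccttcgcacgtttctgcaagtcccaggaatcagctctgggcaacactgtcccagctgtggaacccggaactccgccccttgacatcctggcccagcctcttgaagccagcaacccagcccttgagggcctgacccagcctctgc
CHPF2: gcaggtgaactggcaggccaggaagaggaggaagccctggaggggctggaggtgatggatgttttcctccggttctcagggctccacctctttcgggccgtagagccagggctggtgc

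A reading frame was assigned by rule for 6 listed sites of these members. It was taken from the first ATG in BST2 and PPIA and from the 1 frame without a stop codon in RPL27A and ERP29. The first cytidine fell on codon position 3 in 4 of them, namely the ERP29 site, both printed PPIA sites and the first RPL27A site. It fell on position 2 in BST2. The rule also gave position 1 for the second RPL27A site. Exon ends were not given with these windows, but that site follows gtaagt, the form of a splice donor. It therefore appears to lie in an intron, and its assigned position cannot be relied on. The rule for the frame was set after the sequences were seen, and 6 sites in 4 members describe only themselves. ERP29 was listed only in shNC, with a fold enrichment of 4.42, and BST2 only in shNAT10, with 4.68. PPIA was listed in both, with 8.11 in shNC and 4.29 in shNAT10. DNAAF3 was listed in shNC at 50.4, in a peak that shares 177 nt with one of AC010327.1, and CHPF2 in shNAT10 at 91.3.

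Of the 544 members, 170 (31.2%, 95% Wilson interval 27.5 to 35.3) overlapped a peak of the shNC list only, 132 (24.3%, 20.9 to 28) a peak of the shNAT10 list only, and 242 (44.5%, 40.4 to 48.7) a peak of both lists. Over all 2807 differential peaks the same shares were 32.2%, 27.3% and 40.4%. The share in both lists was 36.7% for the 1575 peaks in the 3′-UTR and 46.7% for the 664 peaks that the authors classed as exon without a finer region. These intervals, like all below, cover the sampling of peaks and not the error of the experiment. The members drew on 408 different peaks of the 6403 in the shNC list and on 368 of the 6417 in the shNAT10 list, and the overlapping peak belonged to the same gene for 99.5% and 98.7% of the members listed there.

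**Figure D1:**
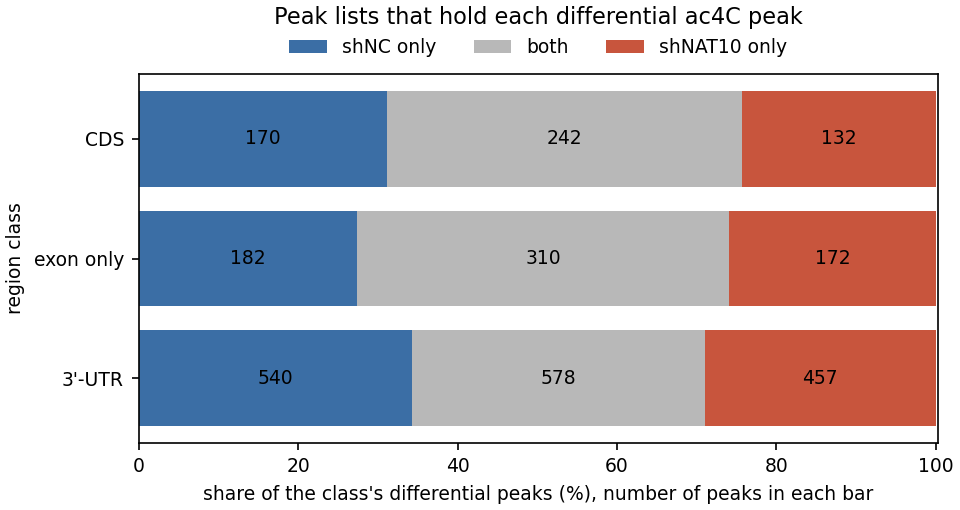
Share of differential ac4C peaks (x axis, percent, with the number of peaks in each bar) listed only in shNC, in both conditions or only in shNAT10, by region class (y axis). The CDS members listed in both number 242 of 544, a share between those of the 3′-UTR (578 peaks) and of exon-only peaks (310 peaks).

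Members listed in 1 condition only were short. Their median exonic length was 181 nt both for the shNC list only and for the shNAT10 list only, against 360 nt for members listed in both. Of the 284 members of at most the median length of 240 nt, 40 (14.1%) were listed in both, and of the 260 longer members 202 (77.7%). The same split over all differential peaks gave 11% and 68.8%, so this is not particular to coding sequence. Lengths went in steps, with 435 of 544 members (80%) within 1 nt of a multiple of 30 nt. Whether length, transcript level or the joining of peaks sets how many lists hold a member was not tested.

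**Figure D2:**
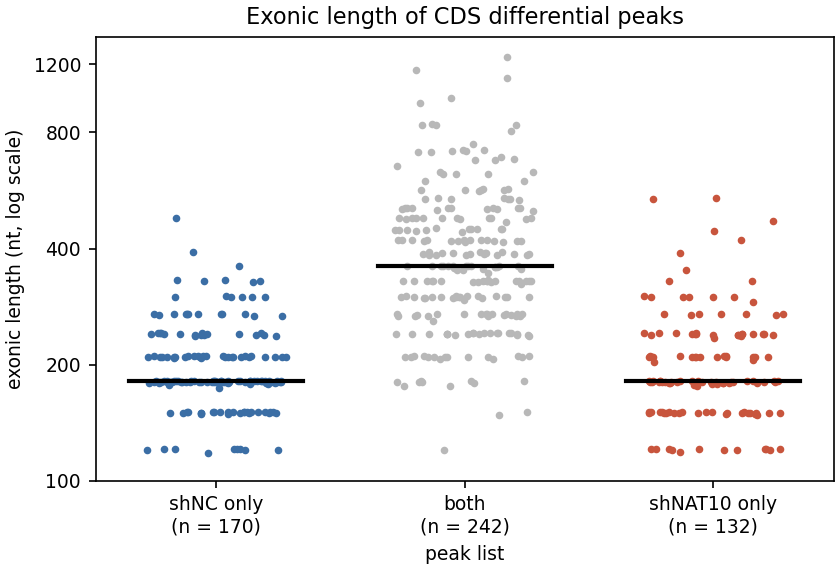
Exonic length of each CDS member (y axis, nt, log scale) by the peak list that holds it (x axis), with a bar at the median and points spread sideways only for legibility. Members in both lists have a median of 360 nt against 181 nt in either single list, and the rows of points show the 30-nt steps.

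The members highest in the shNC list, and absent from the shNAT10 list, included genes of RNA and ribosome work. C8orf59 reached a fold enrichment of 100, although its peak also overlapped a differential peak of E2F5, a cell cycle transcription factor, on the opposite strand. DHX30, an RNA helicase needed for mitochondrial ribosome assembly, reached 85.6 in a 240-nt peak with 1 listed site. NOP14, a nucleolar factor of small-subunit assembly, reached 58.7 with none. TMEM219, a membrane protein, and PCED1A followed at 55.3 and 52.5. The median of all 170 members listed only in shNC was 11.6, with a range from 1.37 to 100, so by list value these stand at the top of a wide distribution. Each value belongs to the overlapping list peak. The joint peak that the authors list for both conditions together had 19.2 in C8orf59, 43.5 in DHX30 and 5.02 in NOP14. Its median was 5.39 for all 170.

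The members highest in the shNAT10 list, and absent from the shNC list, reached larger values. TUBA4A, an alpha-tubulin, was listed at 170, the value of the list peak that its 181-nt member with 3 sites overlaps. NTHL1, a DNA glycosylase of base excision repair, was listed at 139, and EMC9, a subunit of the complex that inserts membrane proteins, at 108. PODXL2, a sialomucin, and POR, the reductase that feeds electrons to cytochromes P450, were both at 104, the former with 5 listed sites and the latter with none. CHPF2 was at 91.3. The 132 members of this kind had a median of 11.7 and a range from 2.06 to 170. Their joint peaks had a median of 5.09. The joint value was 3.0 in TUBA4A, 16.6 in NTHL1 and 6.74 in PODXL2, against 51.9 in EMC9 and 48.9 in CHPF2. A high list value thus did not always go with a high value of the member itself. Medians of the single-list members thus lay within 0.1 of each other in the 2 conditions, and 132 differential CDS peaks were listed only where NAT10 had been targeted.

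Among the 242 members listed in both conditions, fold enrichment was higher in shNC for 133 (55.0%) and higher in shNAT10 for 109, where 55.3% of all 1135 differential peaks in both lists were higher in shNC. The median fold enrichment was 14.2 in shNC and 12.2 in shNAT10. The ratio of shNC to shNAT10 had a median of 1.20 and quartiles of 0.472 and 2.13, with 67 members at least 2-fold higher in shNC, 63 at least 2-fold higher in shNAT10 and 112 in between. The scaling between the libraries behind these ratios is not given, and each rests on 1 value per condition. The list peaks of the 2 conditions were picked separately and need not cover the same bases of a member. With overlap of at least 50% of both peaks, 207 members stayed in both lists, with a median ratio of 1.2.

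The widest gaps towards shNC were in an epithelial keratin and in proteins of folding, calcium binding and nucleotide turnover. KRT7, keratin 7, had 180 in shNC and 3.55 in shNAT10, a ratio of 50.7, for a 271-nt member over 2 exonic blocks with 2 listed sites. PFDN4, a subunit of the prefoldin chaperone, had 71.5 and 3.51. CALB2, calretinin, had 170 and 11 in a peak of 509 nt spread over 9 blocks. DNPH1, a nucleotide hydrolase, had 57.6 and 4.82.

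The 4 widest gaps towards shNAT10 had ratios of shNAT10 to shNC from 13.8 to 18.1. EVPL, envoplakin of the cornified envelope, had 4.93 in shNC and 89.3 in shNAT10, and its peak held 14 listed sites, the most of any member. A second EVPL member of 351 nt lay inside the first, overlapped the same shNAT10 peak and is not independent of it. MFSD5, a membrane transporter of molybdate, had 3.8 and 58.3, GALK1, galactokinase, had 4.83 and 71.0, and EEF1A1, the elongation factor that brings tRNA to the ribosome, had 5.10 and 70.6. Of these 4 genes only EEF1A1 is in a gene list used here, so the lists cannot show whether the genes are related.

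**Figure D3:**
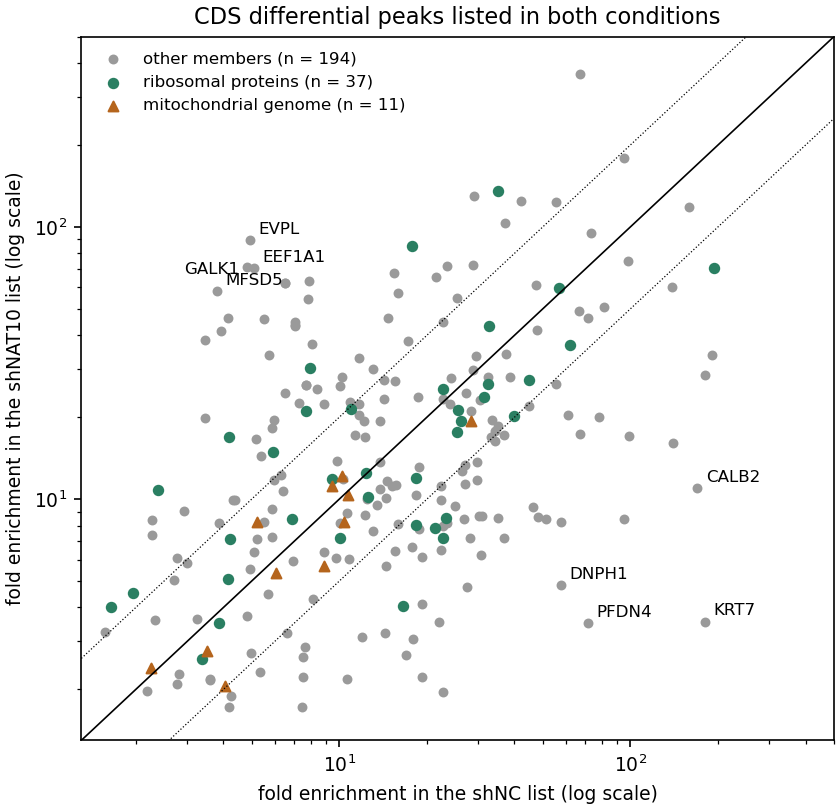
Fold enrichment of IP over input in the shNC list (x axis) and in the shNAT10 list (y axis), both on log scales, for the 242 CDS members listed in both. The solid line marks equality, the dotted lines a 2-fold difference, and the 8 members with the widest gaps are named. Members of the mitochondrial genome stay inside the dotted lines, whereas nuclear members reach a ratio of 50.7 at KRT7 and of 18.1 the other way at EVPL.

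Ribosomal proteins were the largest gene group, with 45 members from 37 genes. They made up 45 of the 129 differential peaks of this group, so 34.9% of the group's peaks were in the CDS class, against 19.4% of all differential peaks. Of the 45, 37 were listed in both conditions (82.2%, against 40.4% of all differential peaks), 3 only in shNC and 5 only in shNAT10. Exon-only peaks of ribosomal protein genes were listed in both at a like share, 53 of 63 (84.1%), and 3′-UTR peaks at 11 of 21 (52.4%). Listing in both also goes with length, at 68.8% of all differential peaks over 240 nt, and the ribosomal shares were not split by length. Proteins of the cytosolic ribosome, 35 members from 27 genes, split 17 to 14 between higher in shNC and higher in shNAT10 among the 31 in both lists, with ratios from 0.221 to 4.09 and a median of 1.20.

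Within the cytosolic ribosome, RPL22L1 had the highest fold enrichments, 194 in shNC and 70.9 in shNAT10. RPL4 had 56.7 and 59.5, which is nearly level, and RPS19, a small-subunit protein, had 32.6 and 43.1. RPS3 went from 23.3 in shNC to 8.51 in shNAT10, and RPS9 from 2.39 to 10.8. RPL27A held both patterns in 1 gene. Its first member, the one whose sequence is given above, had 7.96 in shNC and 30.4 in shNAT10, and its second member, downstream at chr11:8684712-8685011, had 61.9 and 36.8. RPL10 had 3 members, with 6.88 and 8.48 in the first, 11 and 21.4 in the last, and 5.42 in shNAT10 alone between them. Ribosomal protein genes have many processed pseudogenes of near-identical sequence, and how reads were shared among copies is not given in the sources used here.

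Mitochondrial ribosomal proteins added 10 members of 10 genes, 6 in both lists, 3 only in shNAT10 and 1 only in shNC. MRPL53 had 35 in shNC and 136 in shNAT10, but its peak shares 284 nt with one of CCDC142. MRPL51 had 17.8 and 84.9. MRPS21 had 4.17 and 16.9, whereas MRPL41 had 21.4 and 7.82 and MRPS17 had 22.8 and 7.18. The ratios of the 6 therefore ran from 0.210 to 3.18 in both directions.

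The mitochondrial genome carried 12 members, 85.7% of its 14 differential peaks, where 19.4% of all differential peaks were in the CDS class. These members covered 11 genes of the respiratory chain, and 11 of the 12 were listed in both conditions, against 40.4% of all differential peaks. Listing in both also goes with length, at 77.7% of CDS members over their median length and 14.1% of the others. The 1 mitochondrial member in a single list was the shortest, at 150 nt. Whether length accounts for the share of this group was not tested. Fold enrichment was modest, from 2.25 to 28.4 in shNC and from 2.05 to 19.4 in shNAT10, and the ratios stayed between 0.629 and 1.97 with a median of 1.13. MT-ND3, a complex I subunit, was highest with 28.4 and 19.4. MT-CO1 and MT-CO2, catalytic subunits of cytochrome oxidase, had 10.2 and 12.2, and 10.4 and 8.21. MT-ATP8 had 4.04 and 2.05, and its peak overlaps that of MT-ATP6 by 46 nt. MT-ND6, encoded on the other strand, had 5.20 and 8.27 and was the 1 member of the group with no listed site. The second MT-ND5 peak, at 2.06, was listed in shNAT10 only.

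Nuclear genes of the respiratory chain had 19 members of 18 genes, 9 in both lists, 6 only in shNC and 4 only in shNAT10. ATP5B and ATP5C1, the beta and gamma subunits of ATP synthase, had 23.4 and 8.19, and 35.2 and 18.6, in peaks of 5 and 8 blocks. UQCRFS1, the Rieske iron-sulphur protein of complex III, went the other way with 6.52 in shNC and 24.6 in shNAT10, and NDUFB7 of complex I had 13.8 and 19.4. The shNC-only members included both peaks of NDUFAF2, an assembly factor of complex I, at 4.83 and 8.78. Against the narrow ratios of the mitochondrial genome, ratios here ran from 0.265 to 2.86.

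Translation factors and tRNA synthetases had 12 members. Of these, 8 were in both lists, 4 higher in each condition. EIF1, which guards start codon choice, had 29.1 in shNC and 130 in shNAT10. EEF1B2, an exchange factor for the elongation factor, had 2 members, with 29.7 and 13.7 in one and 17.9 and 3.07 in the other, both higher in shNC, in contrast to EEF1A1. HARS, the histidyl-tRNA synthetase, had 27.4 and 4.75. Subunits of the initiation factor eIF3 went different ways. EIF3D and EIF3M were listed in shNC only, at 4.11 and 2.83, EIF3F had 4.99 and 2.73, and EIF3K had 7.27 and 22.5 in one member and 4.16 in shNAT10 only in the other.

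RNA processing proteins had 22 members of 21 genes, 8 in both lists, 6 only in shNC and 8 only in shNAT10. DHX30 and NOP14, given above, were the highest of those in shNC only. RBM38 at 57.5, POP5, a subunit of RNase P, at 54.9, and RBM8A, a core protein of the exon junction complex, at 41.8 were the highest of those in shNAT10 only. RBM38 shared its peak with another gene model, AL109955.1. TAF15, an RNA-binding protein, had 1 member at 11.5 in shNC only and another with 37.2 and 103.

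Cytoskeleton, adhesion and matrix genes had 19 members of 13 genes, 11 in both lists, 6 only in shNC and 2 only in shNAT10. LAMA5, a laminin chain, had 191 and 33.8 in one member and 5.74 and the same shNAT10 peak of 33.8 in its neighbour. LAMB2 had 77.9 and 20. KRT19, a keratin of simple epithelia, had high values in both conditions, 159 and 118. The second KRT7 member had 95.2 and 179, opposite to the first, and overlapped a differential peak of the antisense gene KRT7-AS. KRT7 therefore holds the widest gap towards shNC and, further downstream, a peak with the higher value in shNAT10.

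The ubiquitin and proteasome list had 16 members, 9 in both lists, 4 only in shNC and 3 only in shNAT10. UBE2S, the chain-extending conjugating enzyme of the anaphase-promoting complex, had 48.3 in shNC and 8.61 in shNAT10. PSMA2, a core proteasome subunit, had 15.9 and 57.2, and USP5, a deubiquitinase, was listed at 62.5 in shNAT10 alone. PSMC1, a proteasomal ATPase, was listed at 42.5 in shNC alone, in a peak that also overlaps NRDE2 on the opposite strand.

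In the cell cycle list of 8 members, PLK4, the kinase of centriole duplication, was at 44.9 in shNC only and RFC4, a clamp loader subunit, at 82.8 in shNAT10 only. AURKB and CDC20, both of mitosis, were in both lists with 66.8 and 49.0, and 15.2 and 11.2. In the chaperone list of 6 members, which is drawn by symbol and does not hold ERP29 or TRAP1, HSPB1 had 2 listed sites and fold enrichments of 3.24 and 3.62. HSPA4 had 5.37 and 14.4, and HSPD1 and HSPA8 were listed only in shNAT10 at 8.87 and 3.70. In the histone and chromatin list of 6 members, NCOR1, a corepressor, had 22.1 and 3.53, SMARCA4, the BRG1 ATPase, had 2.28 and 8.36, and ARID3A was listed at 45.6 in shNAT10 only by one of its 2 members and at 7.48 in shNC only by the other.

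Some smaller lists held more members in shNC only. Of 5 members from early-response and lineage transcription factors, 4 were listed only in shNC. These were HOXB7 at 11.7, ID3 at 4.60, and JUND at 8.87 by 2 members that overlap by 161 nt and rest on the same list peak, so that they count as 1. ATF4, the factor of the integrated stress response, was in both lists with 10.1 and 8.17. In the small GTPase list, RAB25, RAC1 and SEC62 were listed only in shNC, with fold enrichments from 6.19 to 7.25, whereas RANGAP1 had 5.53 and 8.21. SEC62, a translocon subunit, and RANGAP1, an activating protein, are no GTPases themselves and were caught by the pattern of the list.

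Of 5 members in the cytokine and growth factor list, 4 were listed only in shNC, but the list is drawn by symbol and misses others. CD70, a ligand of the TNF family, was listed only in shNAT10 at 57.5, and the growth factors NRTN and MDK were in both lists, with 140 and 16.1, and 38.7 and 28.1. GDF1 was at 44.2 in a peak shared with CERS1, a ceramide synthase encoded by the same transcript, IGFBP7, a binding protein of growth factors, was at 8.44, and IL17RC was at 13.8 by 2 neighbouring members on the same list peak. GDF15, a stress-induced cytokine, was listed only in shNAT10, at 15.3. DUSP9, a phosphatase of MAP kinases, was the 1 CDS member of the 13 differential peaks in the MAP kinase list and was listed in shNC only, at 14.5. Zinc finger genes had 6 members, 4 only in shNC, and ZNF358 had 16.9 in shNC and 2.68 in shNAT10. Of all differential peaks 32.2% and of all CDS members 31.2% were listed only in shNC, and lists of 5 or 6 members cannot be set against that share with any precision.

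The membrane transporter list, which is drawn by symbol and does not hold MFSD5, had 5 members, none of them in both lists, against 40.4% of all differential peaks. SLC35B2, a Golgi transporter, ABCB6 and ATP6V1H, a subunit of the vacuolar proton pump, were listed only in shNAT10 at 7.97, 35.5 and 13.1, and SLC3A2, the heavy chain of amino acid transporters, and SLC25A35 only in shNC at 17.5 and 36.6. ABCB6 and SLC25A35 share their peaks with ATG9A and RANGRF. SLC35B2, SLC25A35 and ATP6V1H, at 180, 211 and 151 nt, were below the median length of CDS members, where 14.1% were in both lists. ABCB6 and SLC3A2, at 300 nt each, were above it, where the share was 77.7%. A list of 5 members cannot be set against the 40.4% with any precision, and an effect of length was not tested. The 5 members were 8.33% of the 60 differential peaks of the list. In the central carbon list, GAPDH had 12.2 and 19.4 with 11 sites in a 1163-nt peak that overlaps AC006064.4, LDHB, lactate dehydrogenase B, had 2.99 and 5.84, and TALDO1, transaldolase, was listed at 5.55 in shNC only.

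**Figure D4:**
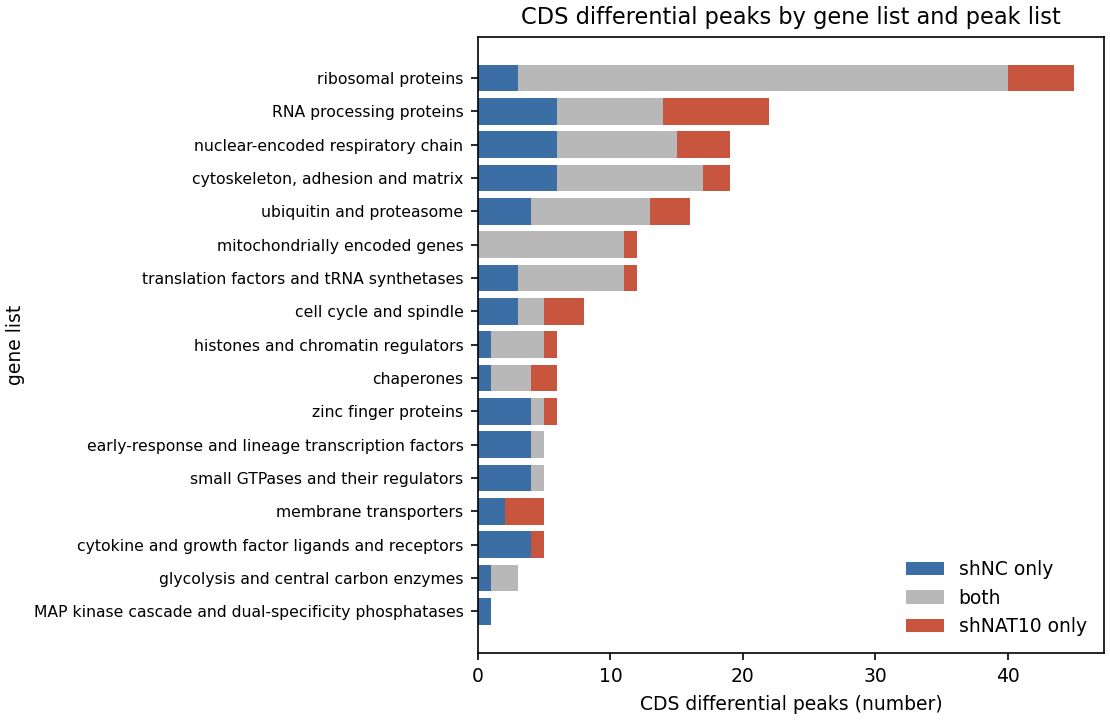
Number of CDS members (x axis) in each of 17 gene lists (y axis), split by the peak list that holds them. Ribosomal proteins hold 45 members with 37 in both lists, and the mitochondrial genome 12 with 11 in both. The counts are not split by peak length.

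CDS members differed from the other classes in structure. Of 544, 363 (66.7%, 62.7 to 70.6) spanned more than 1 exonic block, meaning that the peak ran across at least 1 splice junction, against 26.9% of all differential peaks, 11.2% of 3′-UTR peaks and 30.9% of exon-only peaks. The difference from the 3′-UTR was 55.5 points (51.1 to 59.6) and from exon-only peaks 35.9 points (30.4 to 41.0), both by Newcombe intervals. How the region class was assigned is not given in the sources used here, so whether it is independent of the number of blocks was not tested. Members of 2 blocks numbered 236 and of 3 blocks 90, and 2 members had 9, the most. Total exonic length was alike in the classes, with medians of 240 nt for CDS and 241 nt for the 3′-UTR and exon-only peaks.

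Listed motif sites were more frequent in CDS members than in 3′-UTR peaks. At least 1 CXXCXXCXXCXX site was listed for 373 members (68.6%, 64.5 to 72.3), against 60.9% of all differential peaks, 56.6% of 3′-UTR peaks and 64.5% of exon-only peaks. The difference was 12 points (7.30 to 16.5) from the 3′-UTR and 4.11 points (-1.25 to 9.39) from exon-only peaks, an interval that includes 0. With sites inside exonic blocks only, the share was 60.7% and the difference from the 3′-UTR 5.61 points (0.785 to 10.3). Per 100 nt of exonic sequence there were 0.623 listed sites in CDS members, 0.467 in the 3′-UTR and 0.585 in exon-only peaks. The excess over the 3′-UTR was found among peaks of 1 block, 69.1% of 181 against 54.3% of 1398, a difference of 14.8 points (7.24 to 21.6). Among peaks of more than 1 block it was not, with 68.3% of 363 against 74.6% of 177, a difference of -6.26 points (-13.9 to 2.01). The motif asks for spaced cytidines and nothing else, and the base content of the regions was not measured here.

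**Figure D5:**
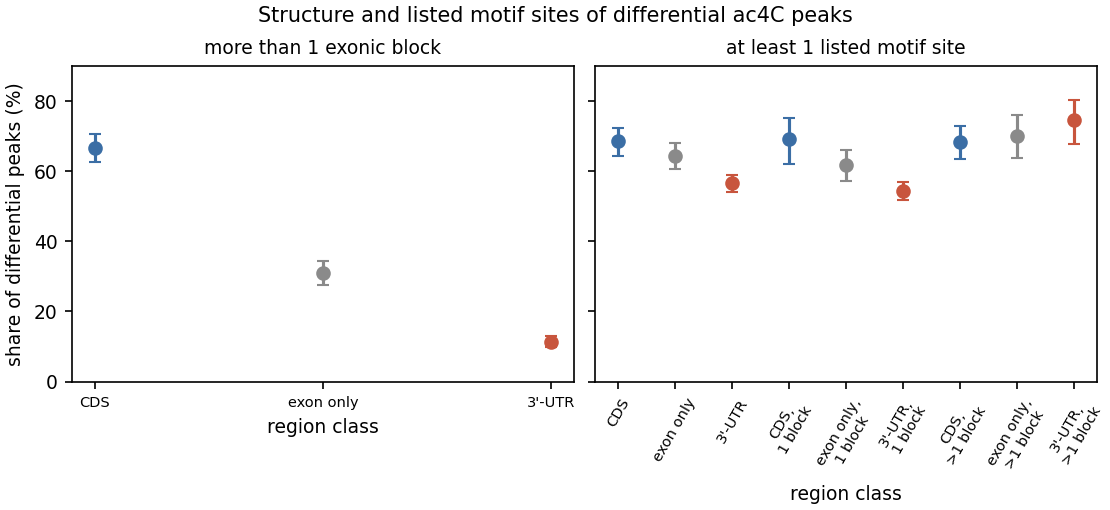
Share of differential peaks (y axis, percent) with more than 1 exonic block (left) and with at least 1 listed CXXCXXCXXCXX site (right), by region class and, on the right, also by number of blocks (x axis). Points are shares and bars 95% Wilson intervals. CDS members stand at 66.7% for several blocks, and their site share is 69.1% with 1 block and 68.3% with several, while that of 3′-UTR peaks goes from 54.3% to 74.6%.

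Within the CDS class, members of the 2 single lists did not differ in site share beyond the interval. A site was listed for 60.6% of the members in shNC only, 66.7% of those in shNAT10 only and 75.2% of those in both, and the 2 single-list shares differed by -6.08 points (-16.7 to 4.89). Per 100 nt the order was different, with 0.601 in shNC only, 0.604 in both and 0.717 in shNAT10 only. The median length was 360 nt for members in both and 181 nt in either single list. The richest members after EVPL were ISYNA1, the enzyme that starts inositol synthesis, with 12 sites in 807 nt and fold enrichments of 139 and 60.2, and GAPDH with 11. PPDPF had 10 sites in 680 nt and fold enrichments of 10.6 and 8.87. At the other end, 171 members had none, among them RPL22L1, whose fold enrichment of 194 was the highest of all members in shNC.

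Listed site positions did not always lie within the exonic blocks. In members of 1 block all 334 listed sites lay inside the peak, and in members of several blocks on the plus strand 6 of 328 (1.83%) did not lie within a block. On the minus strand 159 of 329 (48.3%) lay outside the exonic blocks. JPT1, a microtubule-linked protein on the minus strand with 3 blocks, shows how. Its 3 listed positions fell in introns, and each lay exactly 739 nt or 11154 nt from a motif in its covered block, which are the length of 1 gap between its blocks and of both gaps together. Where letters could be read, over all region classes, each of 31 listed sites inside blocks matched the motif and neither of 2 outside did. Counts of sites per member are therefore used here, and single positions only inside blocks. In members of several blocks the number of listed sites per 100 nt was 0.582 on the plus strand and 0.596 on the minus strand.

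Members lay towards the end of their genes, but less so than 3′-UTR and exon-only peaks. For 507 members (93.2%) the gene could be placed in RefSeq. Their midpoint stood at a median of 83.5% of the gene's genomic span counted from its start, with quartiles of 62.7% and 95%. The median was 97.2% for 3′-UTR peaks and 92.4% for exon-only peaks. DHX30 at 99.8% and EVPL at 98.5% are examples of CDS-class peaks at the far end, and GDF15 at 4.40% and RBM38 at 8.40% of the near one. The class is the authors' label for a whole peak, which can include untranslated bases. How much of each member is coding was not measured. Chromosome 19, rich in genes, held 73 members (13.4%), as against 11.3% of all differential peaks. The share was 9.59% for 3′-UTR peaks, a difference of 3.83 points (0.795 to 7.24), and 13.4% for exon-only peaks, a difference of 0.0155 points (-3.81 to 3.94). All but 3 members belonged to protein-coding genes.

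Several members in 1 gene did not always go together. By Ensembl identifier, 502 genes had a CDS member and 39 had more than 1. All members of a gene had the same listing in 17 of these 39, a mix of both lists and 1 list in 20, shNC only in one member and shNAT10 only in the other in 1 gene (ARID3A), and all 3 listings in 1 (ISYNA1). In ISYNA1 the last peak had 139 and 60.2, the middle one 16.8 in shNAT10 only and the first 12.9 in shNC only. In ATIC, a purine synthesis enzyme, 2 members had 6.91 and 5.92, and 27.2 and 24.5, and the remaining one was at 9.67 in shNC only. MZT2B, a protein of the gamma-tubulin complex, had 14.6 and 11.7 in one member and 67.4 and 366 in the other, the highest fold enrichment of any member. EPN3, an epsin, had 13.8 in shNC only in one member and, further downstream, 4.14 and 46.5 in the other.

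In 93 genes a CDS member stood beside a differential peak of another class, in nearly every case in the 3′-UTR (96 peaks). All differential peaks of the gene shared 1 listing in 39 of them. In 16 genes a CDS member was in 1 list only and the other peak in the other list only, 8 with the CDS peak in shNC and 8 with it in shNAT10. Single listings are common in both classes. The shNC list alone held 31.2% of CDS and 34.3% of 3′-UTR peaks, and the shNAT10 list alone 24.3% and 29%. Whether 16 of 93 genes is more than unrelated listings would give was not tested. POR had its CDS peak at 104 in shNAT10 only and its 3′-UTR peak at 80.8 in shNC only. CHAF1B, a histone chaperone, had 9.90 in shNC only in its CDS and 12.7 in shNAT10 only in its 3′-UTR, and SPCS1, a signal peptidase subunit, 18.8 and 25.1 in the same arrangement. TIMP2, an inhibitor of matrix metalloproteinases, had 2 CDS peaks in shNC only, at 22.5 and 6.49, beside 3′-UTR peaks at 8.45 in shNAT10 only and at 4.14 and 14.9 in both. In SMC4, a condensin subunit, the CDS peak was at 4.01 in shNAT10 only and the 3′-UTR peak at 26.9 in shNC only, and both overlap TRIM59.

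A differential peak of another gene, on either strand, overlapped 60 members (11%), which makes their gene uncertain. For 22 members such a peak lay on the opposite strand. On the same strand, 18 pairs of members overlapped each other, for example AARSD1 with the read-through model PTGES3L-AARSD1. The knockdown could not be checked from RNA level in these files. NAT10 itself had no CDS member. Its 1 differential peak lay in the 3′-UTR and was listed with a fold enrichment of 6.91 in shNC and 12 in shNAT10. Of 12 genes that the study names for these cells or that encode its MEK and ERK kinases, 1 had CDS members, namely KRT7, the keratin by which the study stained FaDu cells in lymph nodes.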

How the data were processed

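The libraries were acRIP-seq IP and input from FaDu cells, 1 of each per condition. The submitters' processing notes name cutadapt 2.5, HISAT2 2.1.0, HOMER 4.10.4 and featureCounts 1.6.3, and human GRCh38. The peak caller, its thresholds and the scaling between libraries are not given in the sources used here. The tables are joined to the conditions by a prefix they share with the library titles. In the deposited peak lists the authors give each peak's fold enrichment as a linear ratio of IP over input, and its FDR as a log10 value, which served only as a filter. The deposited table of differential peaks adds a region class and listed motif sites as a number per peak, and 3 columns of the authors' own comparison (a log2 fold change between conditions, its p-value and its FDR), which were not used. Depth is unknown, since no read counts are in these tables.

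A member counted as listed where its exonic blocks shared at least 1 bp with those of a list peak of the same strand, and the peak sharing most was taken. The fold enrichment given for a member is that of this list peak, whose bounds need not be those of the member. Shares carry 95% Wilson intervals and differences 95% Newcombe intervals. Positions in genes and sequences are from RefSeq on GRCh38.p14. The members and gene lists were chosen with earlier results of these data known, and RPS6K kinases were taken out of the ribosomal pattern after the table was read. Members were named by rule: the 6 highest in each single list, the 4 widest ratios each way, the 4 with most sites, genes of 3 members, all members of lists of up to 5 and otherwise the 4 highest. Others named were chosen after their values were seen. Some results that these rules would name are not reported here. Overlap and interval functions were tested on simulated data. Python 3.11.15, numpy 2.4.6, pandas 2.3.3 and matplotlib 3.10.9 were used.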

Additional observations from a re-analysis of the deposited data

How the results depend on the processing

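With 1 IP and 1 input library per condition there is no replicate error, and every count depends on the authors' peak calling. Alternatives changed the listing, the site share, the block share, the fold enrichments and the gene list counts one choice at a time. Of 58 alternative values, 44 stayed within the interval, quartile range or 1.5-fold range set for them. For the counts of the 17 gene lists, the alternative dropped only members among the 60 that overlap another gene's differential peak. Their staying within 1.5-fold was therefore likely beforehand, and the tally is no measure of robustness. With overlap of at least 50% of both peaks, the share in both lists was 38.7% of the 535 members still listed. With list peaks of fold enrichment of at least 4 it was 38.4% of 516. Both values lie below the main interval of 40.4 to 48.7. With list peaks of FDR of at most 1e-10 the share was 43.2% of 431, and 113 members were in neither list. By length, a split chosen after seeing the data, members of at most the median length were 48.9% in shNC only, 14.1% in both and 37.0% in shNAT10 only, and longer members 11.9%, 77.7% and 10.4%. With at least 2 listed sites the share was 44.3%, and with sites inside exonic blocks only it was 60.7%, with a difference from the 3′-UTR of 5.61 points (0.785 to 10.3). The latter setting drops the displaced minus-strand positions. In members of more than 1 block, also chosen after seeing the data, the difference from the 3′-UTR reversed to -6.26 points, and the cause was not tested. In members of 1 block the site density was 0.704 per 100 nt. Without members that overlap another gene's differential peak, membrane transporters kept 3 of 5 members. The planned base content of member sequences was not run, since no genome was used here. No paired analysis was possible because the design has 1 library of each kind for shNC and for shNAT10.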
